A study of Mus musculus with 40 samples.

Results

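NRF2, the product of Nfe2l2, is the transcription factor that switches on antioxidant and detoxification genes when electrophiles or oxidants reach a cell. The 5 genes described here set or report the state of that pathway: the factor's own gene Nfe2l2, its inhibitor Keap1, the small Maf partner gene Maff, and the stress-induced genes Osgin1 and Hmox1. Their probes were taken by symbol, as every probe in the table whose name carries 1 of the 5 symbols. The 5 symbols were chosen with earlier results of these data known. Each had 1 probe, so the set is 5 of 3045 probes, or 5 of 2756 symbols. All 5 passed the filter on low counts, which left 2541 probes for testing.

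RNA was taken from the duodenum of wildtype males of B6C3F1, a hybrid mouse strain, exposed for 28 days, and read with TempO-Seq, a targeted assay that ligates and sequences pairs of short DNA probes bound side by side on a transcript. Of the 40 libraries, 7 came from mice whose drinking water held 180 ppm of hexavalent chromium, Cr(VI), 7 from captan at 12000 ppm in the diet, 7 from captan at 6000 ppm, 7 from folpet at 16000 ppm, 7 from folpet at 6000 ppm, and 5 from controls with no labelled exposure. Captan and folpet are related fungicides; folpet has an aromatic ring where captan has a partly saturated one. The material was fixed, paraffin-embedded tissue taken off slides, so each library mixes the cell types of the section, and fewer cells of a type and less RNA per cell cannot be told apart. No label ties a library to its own mouse, and p-values therefore measure only the spread between libraries, part of which may be technical.

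In resting cells KEAP1, an adaptor of a CUL3 ubiquitin ligase, captures newly made NRF2 and sends it to the proteasome. Electrophiles modify cysteines of KEAP1, NRF2 escapes degradation, enters the nucleus, pairs with a small MAF protein and binds antioxidant response elements. Much of this control acts on the protein, which these RNA counts do not measure. HMOX1 degrades heme and is held down by the repressor BACH1, which competes for the same elements; OSGIN1 was named for its induction by oxidative stress and is a known NRF2 target in human cells.

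Total counts ran from 1763440 to 7904819 per library. All 6 measured enterocyte markers were above 0 in every library, and their summed level was 64675 to 84770 CPM (counts per 1000000) for Cr(VI), 64373 to 91159 CPM for captan 12000 ppm, 58555 to 84139 CPM for captan 6000 ppm, 72028 to 95682 CPM for folpet 16000 ppm, 48121 to 102280 CPM for folpet 6000 ppm and 18127 to 62843 CPM for controls. Transcripts of 19 pancreatic acinar genes, which mark a neighbouring organ, took 4.92% to 82.1% of counts for Cr(VI), 1.33% to 54.2% for captan 12000 ppm, 1.22% to 35.0% for captan 6000 ppm, 14.4% to 44.8% for folpet 16000 ppm, 1.8% to 40.2% for folpet 6000 ppm and 21.2% to 77.6% for controls. The share was over 50% in 4 Cr(VI) libraries, 1 captan 12000 ppm library and 2 controls, and control replicate 5 also stood apart with 2121824 counts in all. Calls of the 5 genes that ended without these libraries are given both ways below.

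Across the 6 groups, Osgin1 and Maff were the members that passed the test against control. Osgin1 rose at the higher dose of each fungicide. Maff was called higher in every exposed group but captan 6000 ppm, where its log2 fold change was 0.74 (edgeR adjusted p = 0.0848). The genes of the factor and of its inhibitor, Nfe2l2 and Keap1, passed in none of the 10 comparisons by edgeR, DESeq2 or limma-voom; at an unadjusted p under 0.05 in edgeR, Nfe2l2 had 3 and Keap1 had 2. Hmox1 was listed at 0 in all 7 Cr(VI) libraries. Elsewhere its counts were 0 or low, with the highest, 133, in captan 12000 ppm.

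**Figure D1:**
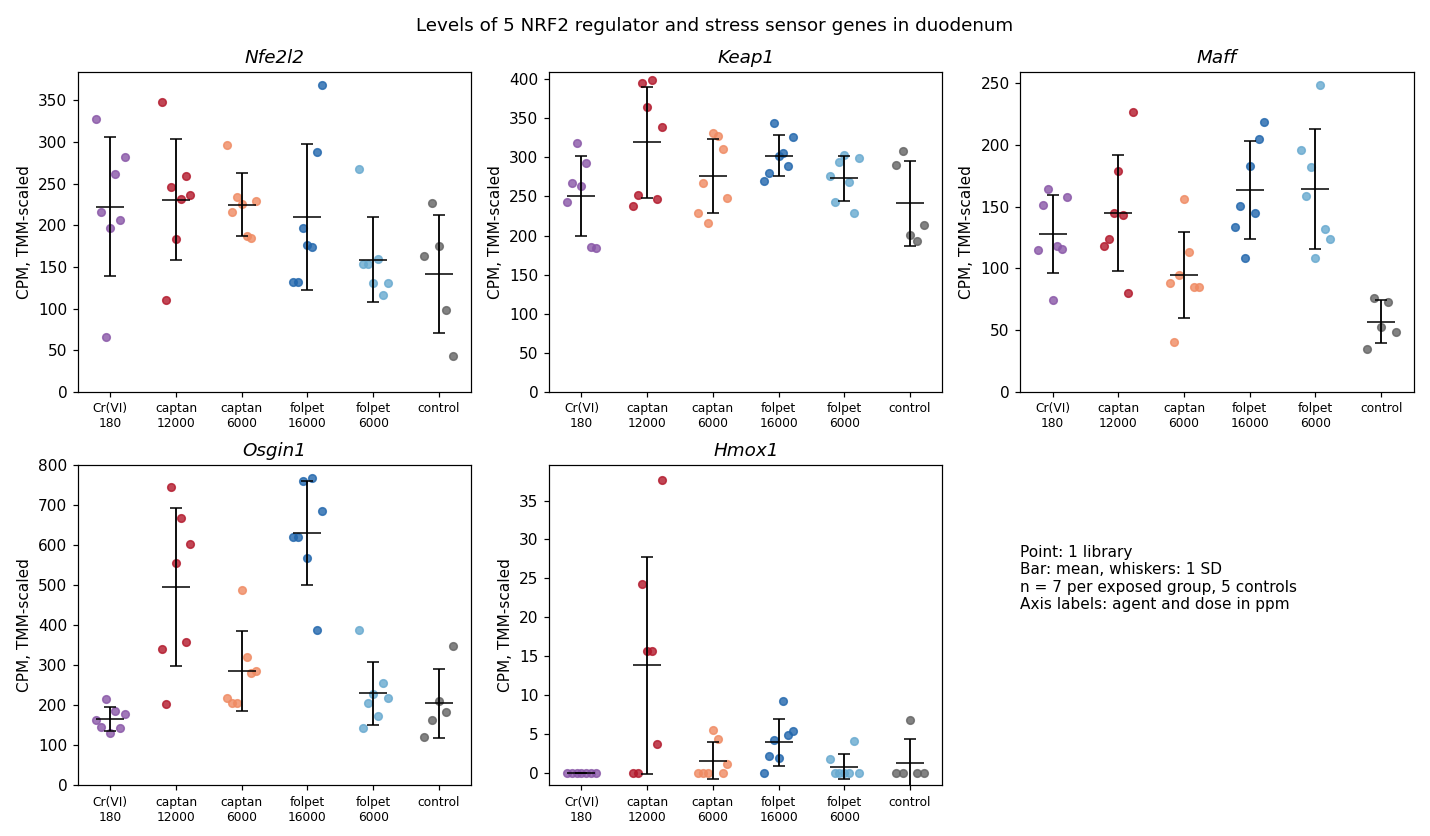
Level of each of the 5 genes in CPM on a linear axis, scaled by TMM, in each library (points) of the 6 groups, with the mean (bar) and 1 SD (whiskers), n = 7 per exposed group and 5 for controls. Osgin1 sat between 387 and 768 CPM in the folpet 16000 ppm libraries, above all 5 controls, and Hmox1 was at 0 in all 7 Cr(VI) libraries.

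Promoter windows from RefSeq (build GRCm38.p6) were available for 4 of the 5 genes, and 3 are shown because they hold a motif of the factors that bind these elements. Each is the 250 bases before a transcription start, 5′ to 3′ on the gene's strand, with motif matches in capitals. Osgin1 lies at chr8:119436897-119437146 on the plus strand, the first of 3 Maff windows at chr15:79346371-79346620 on the plus strand, and Nfe2l2 at chr2:75704664-75704913 on the minus strand.
Osgin1: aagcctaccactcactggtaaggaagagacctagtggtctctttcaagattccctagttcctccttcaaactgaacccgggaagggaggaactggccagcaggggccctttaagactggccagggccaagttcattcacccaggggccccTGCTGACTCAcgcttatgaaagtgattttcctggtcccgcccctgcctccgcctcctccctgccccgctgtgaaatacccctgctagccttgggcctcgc
Maff: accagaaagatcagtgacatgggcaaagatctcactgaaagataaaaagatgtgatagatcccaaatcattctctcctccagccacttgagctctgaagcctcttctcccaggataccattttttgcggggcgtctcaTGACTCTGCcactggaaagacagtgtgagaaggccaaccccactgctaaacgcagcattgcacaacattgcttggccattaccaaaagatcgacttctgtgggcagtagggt
Nfe2l2: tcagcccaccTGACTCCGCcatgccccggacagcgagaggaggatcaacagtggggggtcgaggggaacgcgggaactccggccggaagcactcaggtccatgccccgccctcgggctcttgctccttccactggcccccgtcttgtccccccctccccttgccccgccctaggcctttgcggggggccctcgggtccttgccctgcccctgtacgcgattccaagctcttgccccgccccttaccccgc

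In these windows 3 motifs were sought on both strands. The first was TGACNNNGC, the core of the antioxidant response element. It was found as TGACTCTGC in the Maff window, beginning 112 bases before the start, and as TGACTCCGC in the Nfe2l2 window, beginning 240 bases before it. Of all 32817 windows of this length, 10.2% held it. The second was TGACTCA, the AP-1 site, and the third TGCTGAC, one arm of the Maf recognition element. Both occurred in the Osgin1 window, 97 and 100 bases before the start, overlapping so that the capitals run as TGCTGACTCA. Among all windows 4.46% held TGACTCA and 3.81% held TGCTGAC. The window of Keap1, at chr9:21239333-21239582 on the minus strand, and the other 2 of Maff had no match. A match describes letters in the sequence, not a bound site, and the assay gives no position of a probe on its transcript.

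Nfe2l2 was detected in all 40 libraries. Its level had a lowest, median and highest value of 65.6, 215 and 328 CPM for Cr(VI), of 110, 236 and 349 CPM for captan 12000 ppm, of 184, 226 and 297 CPM for captan 6000 ppm, of 132, 176 and 368 CPM for folpet 16000 ppm and of 116, 153 and 268 CPM for folpet 6000 ppm. The 5 controls had 164, 226, 175, 98.3 and 43.2 CPM. Every exposed group overlapped the controls, and all 5 group means were above the control mean of 141 ± 71.3 CPM (SD, n = 5). No change passed in the quasi-likelihood test of edgeR with Benjamini-Hochberg adjustment, which compares a log2 fold change with the spread over all 40 libraries. The log2 fold change over control was 0.65 ± 0.31 (SE) for Cr(VI) (adjusted p = 0.226), 0.70 ± 0.31 for captan 12000 ppm (adjusted p = 0.187), 0.66 ± 0.31 for captan 6000 ppm (adjusted p = 0.221), 0.56 ± 0.31 for folpet 16000 ppm (adjusted p = 0.260) and 0.16 ± 0.31 for folpet 6000 ppm (adjusted p = 0.848). For captan 12000 ppm the 95% interval was 0.07 to 1.32, so these libraries do not show that Nfe2l2 RNA stayed level. Ordered by mean log2 CPM, the groups ran captan 6000 ppm (7.80), captan 12000 ppm (7.78), Cr(VI) (7.66), folpet 16000 ppm (7.62), folpet 6000 ppm (7.26) and control (6.94), and no neighbours differed by more than the larger SD of the pair.

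The lowest libraries for Nfe2l2 were also rich in acinar transcripts. Control replicate 5, the lowest of all 40 libraries for Nfe2l2, had an acinar share of 77.6%; the next lowest, Cr(VI) replicate 3 with 65.6 CPM, had the highest acinar share of the series, 82.1%; and the third, control replicate 4 with 98.3 CPM, had 65.5%. The other libraries over 50% acinar had higher levels of Nfe2l2. Cr(VI) replicate 7 (71.5% acinar) had 282 CPM, replicate 2 (67.2%) had 215 CPM and replicate 4 (53.2%) had 197 CPM. Captan 12000 ppm replicate 7 (54.2%) had 236 CPM. Whether acinar content lowers the Nfe2l2 values was not tested. Without control replicate 5 the log2 fold changes of Nfe2l2 were 0.42 for Cr(VI), 0.48 for captan 12000 ppm, 0.44 for captan 6000 ppm, 0.34 for folpet 16000 ppm and -0.06 for folpet 6000 ppm. Without the libraries over 50% acinar they were 0.52 for Cr(VI), 0.31 for captan 12000 ppm, 0.27 for captan 6000 ppm, 0.18 for folpet 16000 ppm and -0.22 for folpet 6000 ppm. With the acinar share as a covariate they were 0.68 for Cr(VI), 0.30 for captan 12000 ppm, 0.38 for captan 6000 ppm, 0.43 for folpet 16000 ppm and -0.086 for folpet 6000 ppm. None passed in either setting.

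Keap1 varied least of the 5 genes between libraries of a group, with a biological coefficient of variation of 0.218, against a median of 0.557 over all tested probes. It had a lowest, median and highest level of 184, 264 and 319 CPM for Cr(VI), of 238, 339 and 399 CPM for captan 12000 ppm, of 216, 267 and 332 CPM for captan 6000 ppm, of 270, 302 and 344 CPM for folpet 16000 ppm and of 229, 276 and 304 CPM for folpet 6000 ppm. Controls had 290, 309, 201, 193 and 213 CPM. The groups overlapped throughout. The largest log2 fold change over control was 0.40 ± 0.16 for captan 12000 ppm (95% interval 0.08 to 0.73, edgeR adjusted p = 0.136), followed by 0.32 ± 0.16 for folpet 16000 ppm (adjusted p = 0.203). For captan 6000 ppm it was 0.19 ± 0.16, for folpet 6000 ppm 0.18 ± 0.16 and for Cr(VI) 0.06 ± 0.16, with an interval for Cr(VI) of -0.27 to 0.38. The 6 group means of log2 CPM spanned 0.40, and no neighbours in their order (captan 12000 ppm, folpet 16000 ppm, captan 6000 ppm, folpet 6000 ppm, Cr(VI), control) differed by more than the larger SD of the pair.

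Maff encodes MAFF, a small MAF protein that lacks a transactivation domain of its own and binds DNA as a partner of NRF2 or as a homodimer. Its level had a lowest, median and highest value of 74.5, 118 and 164 CPM for Cr(VI), of 79.7, 143 and 227 CPM for captan 12000 ppm, of 40.5, 87.9 and 156 CPM for captan 6000 ppm, of 108, 150 and 218 CPM for folpet 16000 ppm and of 109, 158 and 248 CPM for folpet 6000 ppm. The 5 controls had 34.3, 75.9, 52.3, 73.1 and 48.6 CPM. All 7 libraries of captan 12000 ppm, of folpet 16000 ppm and of folpet 6000 ppm lay above every control, as did 6 of 7 for Cr(VI) and 6 of 7 for captan 6000 ppm. Complete separation of this kind was seen for 2.16% of tested probes with captan 12000 ppm, 5.79% with folpet 16000 ppm and 3.86% with folpet 6000 ppm, beside 2.01% with Cr(VI) and 2.01% with captan 6000 ppm.

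By edgeR, Maff rose with Cr(VI) (log2 fold change 1.17 ± 0.27 (SE), 95% interval 0.63 to 1.70, adjusted p = 0.00334) and with captan 12000 ppm (1.35 ± 0.27, 0.81 to 1.88, adjusted p = 0.000672). It also rose with folpet 16000 ppm (1.52 ± 0.27, 0.98 to 2.06, adjusted p = 4.78e-05) and with folpet 6000 ppm (1.53 ± 0.27, 0.99 to 2.07, adjusted p = 0.000106). The value for captan 6000 ppm was 0.74 ± 0.26 (0.21 to 1.26, adjusted p = 0.0848). The call for captan 6000 ppm turned on 1 library: without its replicate 2, which had the lowest exposed value, the log2 fold change was 0.87 with an adjusted p of 0.0270. The Cr(VI) call ended when libraries over 50% acinar were left out (1.13, adjusted p = 0.0764) and when only these 2 groups were fitted (1.21, adjusted p = 0.0517), with a log2 fold change close to the 1.17 above and fewer libraries in the fit. It also ended when libraries were scaled by total counts alone (0.84, adjusted p = 0.260).

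Smooth muscle markers had lower ranges in the exposed groups, opposite to Maff: 6 markers summed to 1347 to 1935 CPM for Cr(VI), 1355 to 2352 CPM for captan 12000 ppm, 1155 to 1877 CPM for captan 6000 ppm, 1351 to 1583 CPM for folpet 16000 ppm and 1140 to 1913 CPM for folpet 6000 ppm, against 1666 to 3126 CPM for controls. The ranges of the enterocyte markers given above had higher ends in every exposed group than in controls. The part of either in the Maff values was not tested.

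No dose step passed for Maff. With folpet, 16000 ppm against 6000 ppm gave a log2 fold change of -0.01 ± 0.23 (95% interval -0.47 to 0.46, adjusted p = 0.996). With captan, 12000 ppm against 6000 ppm gave 0.61 ± 0.23 (0.14 to 1.08, adjusted p = 0.563), which did not pass. At the matched dose of 6000 ppm, captan against folpet gave -0.79 ± 0.23 (-1.26 to -0.32, unadjusted p = 0.00141, adjusted p = 0.275 by edgeR), the 13th smallest p of 2541 probes in that comparison. The group means ran folpet 16000 ppm, folpet 6000 ppm, captan 12000 ppm, Cr(VI), captan 6000 ppm and control. Among neighbours in that order, only captan 6000 ppm and control stood further apart than the larger SD of the pair, by 0.70 against 0.59 on the log2 scale.

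**Figure D2:**
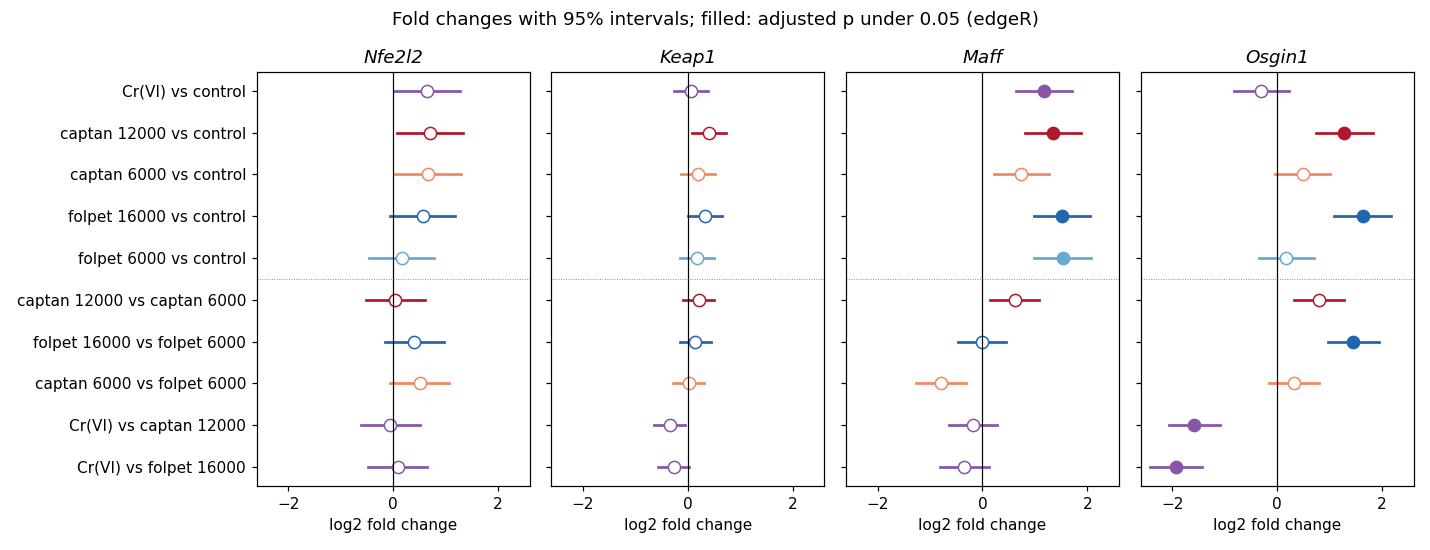
Log2 fold change (x axis) of Nfe2l2, Keap1, Maff and Osgin1 in each of the 10 comparisons (rows), with 95% intervals from edgeR and filled points where the adjusted p was under 0.05. Maff was filled in 4 of 5 rows against control, Osgin1 in 2 of 5 and in the folpet dose step and both Cr(VI) rows below it; Hmox1 is left out because its fitted values depend on the prior count.

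Osgin1, also known as a growth inhibitor induced by oxidative stress, had the largest changes with a usable count. Its level had a lowest, median and highest value of 131, 163 and 215 CPM for Cr(VI), of 203, 555 and 746 CPM for captan 12000 ppm, of 206, 279 and 488 CPM for captan 6000 ppm, of 387, 622 and 768 CPM for folpet 16000 ppm and of 142, 217 and 388 CPM for folpet 6000 ppm. The 5 controls had 120, 162, 211, 184 and 347 CPM. All 7 folpet 16000 ppm libraries lay above every control, where 5.79% of tested probes separated completely, and 5 of 7 captan 12000 ppm libraries did. The Cr(VI) libraries lay inside the range of the controls.

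Osgin1 rose with folpet 16000 ppm, to 630 ± 130 CPM (SD, n = 7) against 205 ± 86.1 CPM in controls (SD, n = 5), a log2 fold change of 1.63 ± 0.27 (SE; 95% interval 1.08 to 2.18, edgeR adjusted p = 2.73e-05). It rose with captan 12000 ppm, to 496 ± 198 CPM (SD, n = 7), a log2 fold change of 1.28 ± 0.27 (0.74 to 1.82, adjusted p = 0.00143). The captan call ended when the acinar share was a covariate (1.02, adjusted p = 0.0601) and when only these 2 groups were fitted (adjusted p = 0.0540). Neither lower dose passed: captan 6000 ppm gave 0.49 ± 0.26 (-0.04 to 1.02, adjusted p = 0.300) and folpet 6000 ppm gave 0.17 ± 0.26 (-0.35 to 0.70, adjusted p = 0.805). Cr(VI) gave -0.30 ± 0.26 (-0.82 to 0.22, adjusted p = 0.614).

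Control replicate 5 held the highest control value of Osgin1, 347 CPM. Without it the log2 fold changes over control were 1.90 for folpet 16000 ppm, 1.55 for captan 12000 ppm, 0.76 for captan 6000 ppm (adjusted p = 0.116), 0.44 for folpet 6000 ppm and -0.03 for Cr(VI). Without all libraries over 50% acinar they were 1.96 for folpet 16000 ppm, 1.57 for captan 12000 ppm, 0.82 for captan 6000 ppm (adjusted p = 0.182), 0.52 for folpet 6000 ppm and 0.021 for Cr(VI). The same calls were made in both settings as with all libraries. The group means of log2 CPM ran folpet 16000 ppm (9.27), captan 12000 ppm (8.83), captan 6000 ppm (8.10), folpet 6000 ppm (7.78), control (7.59) and Cr(VI) (7.36). Of these neighbours only captan 12000 ppm and captan 6000 ppm differed by more than the larger SD of the pair, by 0.74 against 0.67.

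The dose step of folpet was tested directly. Osgin1 rose at 16000 ppm relative to 6000 ppm, with a log2 fold change of 1.46 ± 0.24 (0.97 to 1.94, edgeR adjusted p = 0.000206), and 6 of 7 libraries at the higher dose lay above all 7 at the lower; the ranges of 1.57% of probes did not overlap. It had the second smallest p of the 2541 probes. For captan the step was 0.79 ± 0.24 (0.32 to 1.27, unadjusted p = 0.00161), the 6th smallest p, but its adjusted p was 0.555 in a comparison where edgeR called no probe and the ranges of 0.0394% of probes did not overlap. At 6000 ppm, captan against folpet gave 0.32 ± 0.23 (adjusted p = 1).

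Cr(VI) differed from the higher dose of each fungicide in Osgin1. Against captan 12000 ppm the log2 fold change was -1.58 ± 0.24 (-2.07 to -1.10, adjusted p = 3.54e-05), with 6 of 7 Cr(VI) libraries below all captan libraries. Against folpet 16000 ppm it was -1.93 ± 0.24 (-2.42 to -1.44, adjusted p = 8.24e-07), with no overlap, which 4.49% of tested probes showed. For the other members the Cr(VI) values against captan 12000 ppm were -0.18 ± 0.23 for Maff, -0.35 ± 0.15 for Keap1 and -0.05 for Nfe2l2, and against folpet 16000 ppm -0.35 ± 0.23, -0.27 ± 0.15 and 0.09 in the same order of genes, none of which passed. The agents differ in dose and route, so these comparisons set groups and not equal exposures side by side.

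Hmox1, heme oxygenase 1, was the least detected member. It was above 0 in 17 of 40 libraries, with counts of 10 to 133 in those. It was 0 in all 7 Cr(VI) libraries. In captan 12000 ppm it was 0, 0, 24.3, 15.7, 15.7, 3.72 and 37.6 CPM. In folpet 16000 ppm it was 0, 2.25, 4.27, 1.94, 9.34, 4.87 and 5.42 CPM. It was above 0 in 3 of 7 captan 6000 ppm libraries, at most 5.60 CPM, in 2 of 7 folpet 6000 ppm libraries, at most 4.11 CPM, and in 1 of 5 controls, at 6.80 CPM. Captan 12000 ppm held the 4 highest values of the series and also 2 libraries at 0. Low counts were scarce in the whole table: 28.5% of values were 0, but of those above 0 only 1.01% lay from 1 to 5, against 2.93% from 21 to 25. A 0 for Hmox1 may therefore stand for a low count, and a fitted fold against a group at 0 gives no size of the difference. The CPM that a low count stands for also differs between libraries, with their total and their TMM factor. That factor was 0.291 to 1.63 for Cr(VI) and 0.653 to 1.15 for folpet 16000 ppm. Its part in the Hmox1 comparisons was not tested.

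The group means of Hmox1 ran captan 12000 ppm, folpet 16000 ppm, captan 6000 ppm, folpet 6000 ppm, control and Cr(VI) on the log2 scale, with no neighbours apart by more than the larger SD. No change against control passed by edgeR, DESeq2 or limma-voom, and 1 of the 5 had an unadjusted p under 0.05 in edgeR. The adjusted p from edgeR was 0.0821 for Cr(VI), 0.382 for captan 12000 ppm, 0.976 for captan 6000 ppm, 0.717 for folpet 16000 ppm and 0.889 for folpet 6000 ppm. Cr(VI) was called lower by edgeR than captan 12000 ppm (adjusted p = 0.0120) and than folpet 16000 ppm (adjusted p = 0.0253), although libraries at 0 in both fungicide groups overlap those of Cr(VI). An exact two-sided permutation test on CPM, chosen after the values were seen and adjusted over the 10 comparisons, gave an adjusted p of 0.0699 against captan 12000 ppm (unadjusted 0.0210) and of 0.0466 against folpet 16000 ppm (unadjusted 0.00466). Without libraries over 50% acinar both edgeR calls ended, at adjusted p = 0.182 and 0.193, and the fitted log2 fold change of captan 12000 ppm over control was 2.17, against 3.28 with all libraries.

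Macrophages also express Hmox1. The 8 measured macrophage and monocyte markers summed to 1396 to 3044 CPM for Cr(VI), 959 to 1384 CPM for captan 12000 ppm, 926 to 1468 CPM for captan 6000 ppm, 638 to 1724 CPM for folpet 16000 ppm, 983 to 1725 CPM for folpet 6000 ppm and 917 to 2617 CPM for controls. At least 7 of the 8 were above 0 in every library. Csf1r, the receptor of a macrophage growth factor, was at 0 in all folpet 16000 ppm libraries. A marker at 0 was not particular to that group: each other group also had libraries with 7 of the 8 above 0, beside libraries with all 8. Their mean was 1783 ± 577 CPM for Cr(VI) (SD, n = 7), the group in which Hmox1 was at 0 throughout, and 1783 ± 630 CPM for controls (SD, n = 5). The medians were 1545 CPM for Cr(VI) and 1660 CPM for controls. The part of macrophages in the Hmox1 values was not tested.

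Counting the members by comparison, 1 of 5 was called higher with Cr(VI) against control, where 2.95% of all tested probes were called higher and 5.94% in either direction. Captan 12000 ppm had 2 of 5 higher (4.64% higher and 6.18% in either direction), folpet 16000 ppm 2 of 5 (7.91% higher, 4.68% lower and 12.6% in either direction) and folpet 6000 ppm 1 of 5 (4.6% higher, 1.61% lower and 6.22% in either direction). Captan 6000 ppm had 0 of 5 by edgeR, by DESeq2 and by limma-voom, with 2 at an unadjusted p under 0.05, where 3.78% of probes were called higher and 5.16% in either direction. The median log2 fold change of the 5 was 0.06 for Cr(VI), 1.28 for captan 12000 ppm, 0.49 for captan 6000 ppm, 1.5 for folpet 16000 ppm and 0.17 for folpet 6000 ppm, beside medians over all probes of -0.03, 0.00, 0.01, -0.05 and -0.00. Hmox1 enters each of these medians. For folpet 16000 ppm the median is the fitted value of Hmox1 itself (95% interval -2.21 to 5.21, edgeR adjusted p = 0.717). For captan 12000 ppm the fitted 3.28 of Hmox1 lies above the median. The 5 comparisons with control share the same control libraries, and their values are not independent of each other. As the members were chosen with earlier results of these data known, their counts are not those of an unselected set.

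Between exposed groups, the folpet dose step had 1 of 5 called higher, where 0.59% of probes were called higher, 1.14% lower and 1.73% in either direction. The captan dose step had 0 of 5 by all 3 tools, with 2 at an unadjusted p under 0.05; edgeR called 0% of the 2541 probes, of which 148 had an unadjusted p under 0.05. Captan against folpet at 6000 ppm had 0 of 5 by all 3 tools, with 1 at an unadjusted p under 0.05 and 0.157% of all probes called. Cr(VI) had 2 of 5 called lower than captan 12000 ppm (3.15% of probes lower, 4.64% in either direction) and 2 of 5 lower than folpet 16000 ppm (5.35% and 7.32%).

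**Figure D3:**
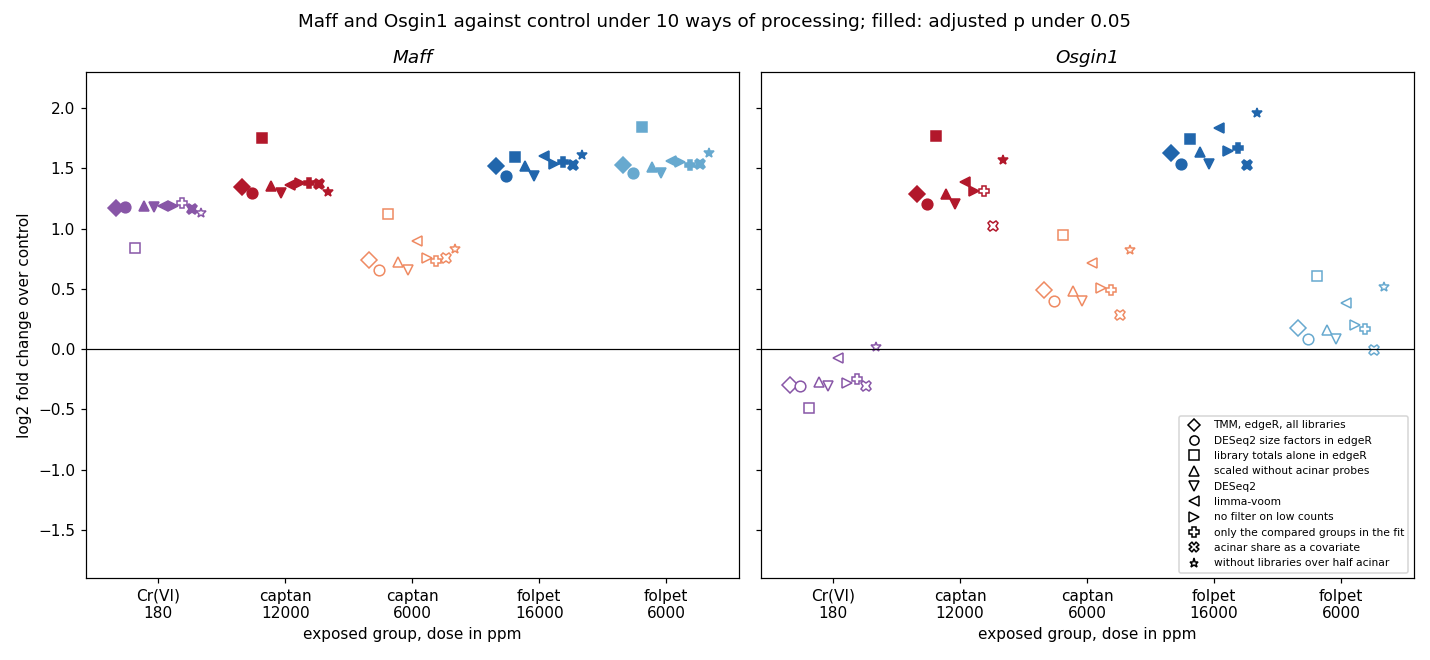
Log2 fold change over control (y axis) of Maff and Osgin1 in the 5 exposed groups (x axis, dose in ppm) under 10 ways of processing (symbols), filled where the adjusted p was under 0.05. Maff with folpet and Osgin1 with folpet 16000 ppm were filled under all 10; Osgin1 with either lower dose or with Cr(VI) was open under all of them.

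The libraries that were high for Osgin1 were also high for known products of the pathway. The 3 genes whose log2 CPM followed Osgin1 most closely over the 40 libraries were Cbr3, a carbonyl reductase (Pearson r = 0.837, Spearman rho = 0.842), Nqo1, a quinone reductase (0.83 and 0.792), and Srxn1, which repairs oxidised peroxiredoxins (0.816 and 0.773). After group means were subtracted, r was 0.681, 0.613 and 0.671 for these genes, and without the 2 libraries farthest from the median it was 0.838, 0.804 and 0.790. Hmox1 followed Osgin1 itself most closely (r = 0.763, rho = 0.702, r = 0.639 within groups), then Srxn1 (0.752, 0.667 and 0.700) and Gstm3 (0.739, 0.656 and 0.677). Hmox1 was above 0 in 17 of the 40 libraries, and those at 0 share 1 log2 value, so its correlations rest partly on detection. All correlations here are descriptions over libraries that share depth, scaling and tissue make-up, and carry no p.

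Keap1 was closest to Gclc, the catalytic subunit of the enzyme that starts glutathione synthesis (r = 0.612, rho = 0.639, r = 0.441 within groups), to Gstm3 (0.603, 0.634 and 0.488) and to Gsr, glutathione reductase (0.598, 0.599 and 0.510). Maff was closest to Tuba4a, an alpha tubulin (0.732, 0.681 and 0.585), to Krt8, an epithelial keratin (0.720, 0.608 and 0.435), and to Ugdh, UDP-glucose dehydrogenase (0.691, 0.551 and 0.506). Nfe2l2 was closest to Tbp, the TATA-binding protein (0.733, 0.555 and 0.770), but without the 2 farthest libraries that r was 0.448, so it rests on them. Nfe2l2 and Osgin1 had an r of 0.109, and of -0.131 within groups.

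**Figure D4:**
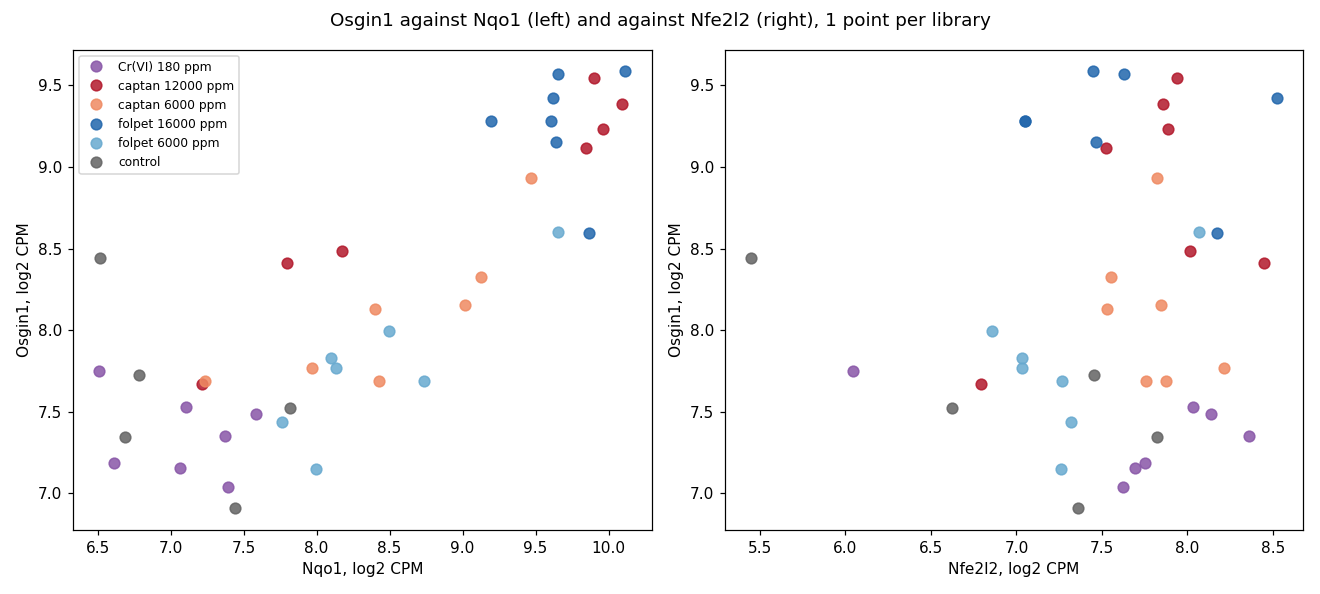
Osgin1 (y axis) against Nqo1 (left, x axis) and against Nfe2l2 (right, x axis), in log2 CPM, with 1 point per library coloured by group. Osgin1 and Nqo1 ran together (r = 0.83), with most folpet 16000 ppm and captan 12000 ppm libraries at the upper right, while Osgin1 and Nfe2l2 did not (r = 0.109).

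The listed targets of NRF2 moved in all 4 fungicide groups, including captan 6000 ppm, where none of the 5 genes above passed. Of 33 tested targets, 27 rose with folpet 16000 ppm, 17 with folpet 6000 ppm, 22 with captan 12000 ppm, 17 with captan 6000 ppm and 3 with Cr(VI), by edgeR, and the rest did not pass. Their median log2 fold change was 1.58, 1.15, 1.35, 1.2 and 0.17 in that order of groups, beside the medians over all probes given above. Over all tested probes 7.91%, 4.6%, 4.64%, 3.78% and 2.95% were called higher. Without libraries over 50% acinar the counts of targets were 23, 14, 13, 11 and 1, and without control replicate 5 they were 26, 14, 19, 14 and 1. The targets were chosen with earlier results of these data known.

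Slc7a11, the cystine importer, rose by 5.0 ± 1.26 (log2, SE) with folpet 16000 ppm and by 4.60 ± 1.24 with captan 12000 ppm. Cbr3 rose by 4.75 ± 0.67 with folpet 16000 ppm, 2.99 ± 0.61 with folpet 6000 ppm, 4.40 ± 0.66 with captan 12000 ppm and 3.25 ± 0.62 with captan 6000 ppm. Gsta2, a glutathione transferase whose probe may also read its close relatives, rose by 4.27 ± 0.53, 3.61 ± 0.52, 3.67 ± 0.52 and 3.37 ± 0.51 in the same 4 groups. With Cr(VI) the 3 that rose were Me1, malic enzyme, by 1.28 ± 0.26, Ugdh by 0.97 ± 0.29 and Cat, catalase, by 0.63 ± 0.16. Against the higher fungicide doses, 26 of 33 targets were lower with Cr(VI) than with folpet 16000 ppm and 15 of 33 lower than with captan 12000 ppm; over all tested probes, 5.35% and 3.15% were called lower. Without libraries over 50% acinar the counts of targets were 18 and 3, and calls over all probes in either direction also fell, to 111 against 186 with all libraries, and to 26 against 118.

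Called dose steps were fewer. With folpet, 1 of 33 targets rose at 16000 ppm relative to 6000 ppm, Prdx1, a peroxiredoxin, by 0.65 ± 0.16, beside the step of Osgin1 given above. An unadjusted p under 0.05 in edgeR was reached by 12 of the 33, and by 268 of the 2541 tested probes. The median log2 fold change of the targets in this step was 0.58, beside -0.03 over all probes. With captan 0 of 33 passed by edgeR, DESeq2 or limma-voom, and 2 had an unadjusted p under 0.05 in edgeR. The median of the targets in the captan step was 0.21, beside 0.00 over all probes.

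Among 7 tested partners and modulators of NRF2, Cdkn1a, which encodes the cell cycle inhibitor p21, rose by 0.75 ± 0.18 with folpet 6000 ppm and by 0.57 ± 0.18 with folpet 16000 ppm, and Crebbp, a coactivator, rose by 0.46 ± 0.15 with folpet 16000 ppm. The folpet 16000 ppm calls of both were lost in DESeq2. Without control replicate 5 the count of the 7 that rose with folpet 16000 ppm was 1, not 2. It was also 1 without the libraries left out above for their acinar share. With folpet 6000 ppm the count was 1 in both settings. With Cr(VI) and captan 12000 ppm 0 of the 7 passed by any of the 3 tools. An unadjusted p under 0.05 in edgeR was reached by 0 with either. With captan 6000 ppm 0 passed and 2 had such a p. Over all tested probes edgeR called 5.94%, 6.18% and 5.16% in either direction, in that order of groups. With folpet 16000 ppm it called 12.6% and with folpet 6000 ppm 6.22%. At these shares 0 of 7 does not set the list apart from all probes. Among 5 tested heme and iron genes, Alas1, the first enzyme of heme synthesis, rose by 0.75 ± 0.23 with Cr(VI), by 1.13 ± 0.23 with captan 12000 ppm, by 1.03 ± 0.23 with folpet 16000 ppm and by 0.80 ± 0.23 with folpet 6000 ppm. Slc11a2, the apical iron importer of duodenal enterocytes, rose by 1.97 ± 0.54 with captan 12000 ppm, by 1.86 ± 0.54 with captan 6000 ppm and by 1.59 ± 0.53 with folpet 16000 ppm. Blvra, biliverdin reductase, which acts after heme oxygenase, rose by 1.38 ± 0.41 with folpet 16000 ppm. The counts of heme and iron genes that rose were 1 with Cr(VI), 2 with captan 12000 ppm, 1 with captan 6000 ppm, 3 with folpet 16000 ppm and 1 with folpet 6000 ppm, of 5 tested, beside 2.95%, 4.64%, 3.78%, 7.91% and 4.6% of all probes called higher. The calls with Cr(VI) and with folpet 6000 ppm were lost in limma-voom. Without control replicate 5 the counts were 0, 2, 0, 2 and 0 in the same order of groups.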

How the data were processed

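RNA of 40 mouse duodenum libraries was measured by TempO-Seq. The authors deposited raw counts per probe, whole numbers that neither the values nor the header show to be normalized. Per the submitters' processing notes, bcl2fastq 2.17.1.14, Bowtie and genome build mm9 were used; no source used here gives a filter on low counts or the probe positions. Columns were matched to samples by title and groups taken from the labelled treatment; replicate numbers follow accession order.

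The analysis ran in R 4.3.3. The filterByExpr function of edgeR 4.0.16 (minimum count 10, minimum total 15) selected the probes, and TMM scaled the libraries. A robust quasi-likelihood model of 6 group means was fitted to all 40 libraries (34 residual degrees of freedom). Tests were two-sided, and a call means that the adjusted p of Benjamini and Hochberg over 2541 probes was under 0.05. The SE is the log2 fold change over the root of F. CPM used TMM-scaled library sizes, and log2 CPM a prior count of 2. Of the 10 comparisons, 5 set an exposed group against control; the others were both dose steps, captan against folpet at 6000 ppm, and Cr(VI) against captan 12000 ppm and folpet 16000 ppm. The higher doses of captan and folpet differ and were not compared. The fit was tested on simulated data. Alternatives used DESeq2 1.42.0, limma 3.58.1 and other scalings, filters and sets of libraries.

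The members, the lists and the tests were chosen with earlier results of these data known. Up to 4 called genes per list and comparison, those with the largest fold changes, and the 3 genes of highest correlation with each member were eligible to be named. Of the lists, 33 of 54 NRF2 targets, 7 of 23 partners and modulators, 6 of 24 heme and iron genes and 24 of 32 stress factors and sensors were measured. Total counts limit the precision of low probes, and ligated probes are amplified by PCR, so counts are not known to be independent molecules.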

Additional observations from a re-analysis of the deposited data

Results flagged for a closer look

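In 3 of the 30 groups of a gene, 1 library lay far from the rest. Chance flags about 1 in 20 groups, a rate that does not apply to Hmox1, where many libraries share the value at 0. Nfe2l2 was lowest in Cr(VI) replicate 3, at a log2 CPM of 6.05, in the library with the highest acinar share. Nfe2l2 was highest within folpet 6000 ppm in replicate 1, at 8.07. Hmox1 was highest within the controls in replicate 3, at 2.85, the only control with a count above 0.

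Exposed groups differed directly from each other in 5 values by edgeR. Osgin1 was higher at folpet 16000 ppm than at 6000 ppm, by a log2 fold change of 1.46. With Cr(VI), Osgin1 was lower than with captan 12000 ppm (-1.58) and than with folpet 16000 ppm (-1.93). Hmox1 was called lower with Cr(VI) than with captan 12000 ppm (fitted value -9.06) and than with folpet 16000 ppm (fitted value -7.28); as all 7 Cr(VI) libraries were at 0, these fitted values depend on the prior count and give no size of the difference.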

How the results depend on the processing

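Of the 11 called fold changes, none reversed under up to 9 alternatives or with any library left out; with only the compared groups fitted, Hmox1 failed the filter and gave no value for its 2 calls. The number of members called against control for Cr(VI) was 0, not 1, with library totals alone, with only the compared groups fitted and without libraries over 50% acinar. For captan 12000 ppm it was 1, not 2, with only the compared groups and with the acinar covariate. The folpet dose step had 0, not 1, with library totals alone. Cr(VI) against captan 12000 ppm had 4 with library totals alone, and 1 with only the compared groups and 1 without libraries over 50% acinar; against folpet 16000 ppm it had 1 under both. For captan 6000 ppm the count ranged from 0 to 1 when each library was left out.

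Scaling by library totals alone shifted the median log2 fold change of all probes by -0.27 for Cr(VI), 0.44 for captan 12000 ppm, 0.32 for captan 6000 ppm and 0.28 for folpet 6000 ppm against control, and by -0.28 for the folpet dose step, 0.11 for the captan dose step, -0.72 for Cr(VI) against captan 12000 ppm and -0.28 for Cr(VI) against folpet 16000 ppm. By limma-voom 12 NRF2 targets passed with captan 12000 ppm, not 22, and 8 for Cr(VI) against captan 12000 ppm, not 15; 3 passed in the folpet dose step, not 1, by limma-voom and by DESeq2.

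Reversals touched only values that had not passed, and the cause was not tested. With library totals alone Keap1 was -0.23 for Cr(VI) against control and -0.14 for the folpet dose step, and Nfe2l2 was -0.14 for Cr(VI) against folpet 16000 ppm. Without libraries over 50% acinar, against control, Keap1 was -0.13 and Osgin1 0.021 for Cr(VI), Hmox1 -0.40 for captan 6000 ppm and Nfe2l2 -0.22 for folpet 6000 ppm; Nfe2l2 was 0.21 for Cr(VI) against captan 12000 ppm. With the acinar covariate Hmox1 was -0.21 for captan 6000 ppm, Nfe2l2 -0.086 and Osgin1 -0.010 for folpet 6000 ppm, all against control, and Nfe2l2 was -0.079 for the captan dose step and 0.38 for Cr(VI) against captan 12000 ppm. Nfe2l2 was -0.0057 for the captan dose step by limma-voom, and 0.0013 with DESeq2 size factors and 0.0011 by DESeq2 for Cr(VI) against captan 12000 ppm. Maff was 0.015 for the folpet dose step when scaled without acinar probes and 0.047 by limma-voom.

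With 1 library left out, against control, Keap1 ranged from -0.016 to 0.18 for Cr(VI), Hmox1 from -0.49 to 6.00 for captan 6000 ppm and from -2.05 to 5.08 for folpet 6000 ppm, and Nfe2l2 from -0.064 to 0.41 for folpet 6000 ppm. Nfe2l2 ranged from -0.080 to 0.17 for the captan dose step, from -0.18 to 0.10 for Cr(VI) against captan 12000 ppm and from -0.034 to 0.28 for Cr(VI) against folpet 16000 ppm. Maff ranged from -0.10 to 0.12 for the folpet dose step, and Keap1 from -0.048 to 0.066 for captan against folpet at 6000 ppm.

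Over the alternatives the number of all probes called against control ranged from 14 to 212 (151 as reported) for Cr(VI), 29 to 243 (157) for captan 12000 ppm, 29 to 184 (131) for captan 6000 ppm, 57 to 384 (320) for folpet 16000 ppm and 51 to 206 (158) for folpet 6000 ppm. It ranged from 0 to 1 (0) for the captan and 9 to 113 (44) for the folpet dose step, 1 to 13 (4) for captan against folpet at 6000 ppm, and 26 to 504 (118) and 66 to 234 (186) for Cr(VI) against captan 12000 ppm and folpet 16000 ppm. No paired analysis was possible because the labels give no replicate numbers. With 5 controls and low counts, changes of Hmox1 were not measurable with precision.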

Other observations

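Of 24 tested stress factors and sensors outside the NRF2 pathway, 2 passed in either direction with Cr(VI), 2 with captan 12000 ppm, 2 with captan 6000 ppm, 4 with folpet 16000 ppm and 4 with folpet 6000 ppm against control, beside 5.94%, 6.18%, 5.16%, 12.6% and 6.22% of all probes. Among them Klf4, a factor of differentiating epithelium, rose in all 5 exposed groups by edgeR, by 1.32 with Cr(VI), 1.53 with captan 12000 ppm, 1.5 with captan 6000 ppm, 1.54 with folpet 16000 ppm and 1.35 with folpet 6000 ppm on the log2 scale. Klf4 is also 1 of the 6 enterocyte markers summed above, with a mean of 133 CPM in controls and 388 CPM for folpet 16000 ppm. Of the subunits of the AP-1 factor, Fos rose with Cr(VI) (0.92), folpet 16000 ppm (0.80) and folpet 6000 ppm (1.21), and Jun with captan 12000 ppm (0.87) and folpet 6000 ppm (0.84). Xbp1, a factor of the unfolded protein response, fell with folpet 16000 ppm (-0.77) and with folpet 6000 ppm (-0.80). In this tissue Xbp1 is also a gene of secretory cells, and the acinar share was 14.4% to 44.8% for folpet 16000 ppm and 1.8% to 40.2% for folpet 6000 ppm, against 21.2% to 77.6% in controls; its part in the Xbp1 values was not tested.

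Sesn1, a sestrin that p53 induces, fell with folpet 16000 ppm against control (-1.28) and against folpet 6000 ppm (-1.45). At 6000 ppm, captan was lower than folpet in Ddit4 (-2.22), a stress-induced inhibitor of mTOR signalling, and in Nfkbia (-0.64), the inhibitor of NF-kappa-B. Atf4, a factor of the integrated stress response, was lower by edgeR with Cr(VI) than with captan 12000 ppm (-0.74) and than with folpet 16000 ppm (-0.55), as was Trp53 (-0.64 and -0.63). These calls depended on the libraries and the tool. Without the libraries left out above for their acinar share, 0 of the 24 genes were called lower than with captan 12000 ppm. Against folpet 16000 ppm 1 of 24 was. In these 2 comparisons with all libraries, edgeR called 2 and 2 of the list, DESeq2 2 and 1, and limma-voom 1 and 2.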
